A study of Mus musculus with 8 samples.

Results

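The let-7 family guide strands are the mature microRNAs that share the let-7 seed, and 9 of them were measured here, namely mmu-let-7a, mmu-let-7b, mmu-let-7c, mmu-let-7d, mmu-let-7e, mmu-let-7f, mmu-let-7g, mmu-let-7i and mmu-miR-98, written below without the species prefix. They were taken by name from the 611 mouse microRNA names on a one-colour Agilent microRNA array, with earlier results of these data known. All groups were mouse embryonic fibroblasts of strain C57BL/6J and genotype Csk-/-, so the mock cells lacked Csk as well. The cells had been transfected with empty vector (mock), with c-Src (Src), with Csk and c-Src together (Csk+Src) or with Csk alone (Csk), and each group had 2 arrays, 8 in all. The labels give no promoter, no expression level and no clone for the transfected genes, and the arrays carried no probe for either gene, so the labels could not be checked against them. The series asked which microRNAs accompany transformation by c-Src.

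let-7 was first found in Caenorhabditis elegans as a gene that times the passage of cells to their adult fate. In mammals the mature strands are low in early embryonic cells and high in differentiated cells, fibroblasts among them, and the RNA-binding protein LIN28 blocks the maturation of their precursors. The guide strand is loaded into an Argonaute protein and pairs through its seed with messenger RNAs, among which those of the Ras genes, Myc and Hmga2 are known targets. Csk is the kinase that phosphorylates the inhibitory tail of the Src family kinases, and cells without it have less restraint on c-Src.

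The mature sequences are printed because the members differ from each other at few bases, which bears on how each was measured. Those of all 9 members were found in RefSeq (build GRCm38.p6). They are written 5′ to 3′, with the seed (bases 2 to 8) in capitals.
let-7a: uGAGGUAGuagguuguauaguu
let-7b: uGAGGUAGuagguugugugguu
let-7c: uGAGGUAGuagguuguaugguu
let-7d: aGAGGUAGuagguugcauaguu
let-7e: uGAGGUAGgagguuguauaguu
let-7f: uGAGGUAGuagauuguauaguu
let-7g: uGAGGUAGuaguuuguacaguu
let-7i: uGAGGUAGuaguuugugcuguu
miR-98: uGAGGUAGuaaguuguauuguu

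All 9 were 22 bases long and shared 1 seed, so they differ only outside the part that chooses most targets. Counted from 1 at the 5′ end, with the base of let-7a first, let-7c differed from let-7a by A19G, let-7e by U9G and let-7f by G12A. let-7b differed by A17G and A19G, let-7d by U1A and U16C, let-7g by G12U and U18C, and miR-98 by G11A and A19U. let-7i was the farthest, with G12U, A17G, U18C and A19U. How far the array probes of such near neighbours bind each other's targets was not tested.

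The genes lie in small clusters. let-7d (chr13:48536078-48536099), let-7f (chr13:48537889-48537910) and let-7a (chr13:48538239-48538260) are encoded side by side on the minus strand of chromosome 13. let-7c (chr15:85706616-85706637) and let-7b (chr15:85707325-85707346) lie together on chromosome 15 within the long noncoding RNA gene Lncppara. A further gene for let-7c (chr16:77599672-77599693) has Mir99a beside it, and a further gene for let-7a, Mirlet7a-2 on chromosome 9, has Mir100 beside it and lies within Mir100hg. let-7e (chr17:17830366-17830387) is encoded with Mir99b and Mir125a within Spaca6. miR-98 (chrX:151913229-151913250) and a further gene for let-7f (chrX:151912353-151912374) lie within Huwe1. let-7g (chr9:106178846-106178867) lies within Wdr82, and let-7i (chr10:122985698-122985719) had no other microRNA gene within 10000 bases. The arrays read the mature strand, so the share that comes from each gene of let-7a, let-7c or let-7f cannot be told apart.

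Between 201 and 250 of the 611 mouse names were detected on an array, and the test covered 243 names, those found on both arrays of 1 group or more. All 9 members were detected on all 8 arrays, each by 2 probes of 10 spots. Values are log2 of the signal scaled by each array's 75th percentile, taken over the 187 microRNAs found on every array. Signals of different members are not comparable as amounts, since each probe has its own brightness. Csk array 2 had the fewest detected names (201) and 696 spots marked as outliers, against 270 to 351 on the others. All arrays lay on 1 slide, each group in a column of its own, so slide column and group cannot be told apart. Array 1 of each group lay in slide row 1 and array 2 in row 2. After scaling, the members were higher on array 2 in 36 of 36 pairs of a member and a group, against 548 of 972 (56.4%) over all tested microRNAs. Before scaling, the summed signal of the members was higher on array 2 in mock, Src and Csk+Src. In Csk it was lower there, at 20289 against 21500. Of 8 fibroblast and mesenchyme markers 6 were detected on all arrays and miR-145 on none. The blood list (6 names) was detected on no array, and 6 of the 7 epithelial names likewise. The summed scaled signal of the fibroblast list was 37.8 to 41.5 on the mock arrays, 50.4 to 56.1 on the Src arrays, 43.9 to 44.9 on the Csk+Src arrays and 40.1 to 46.2 on the Csk arrays. Both groups with added c-Src thus lay above mock, while the Csk arrays overlapped mock and reached above the Csk+Src arrays. The part of this list in the results was not tested. In such bulk RNA, fewer cells that hold a microRNA and less of it per cell cannot be told apart. The labels call the arrays of a group biological replicates while the series text speaks only of duplicates. The p-values thus measure the spread between these arrays, which may be technical.

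**Figure D1:**
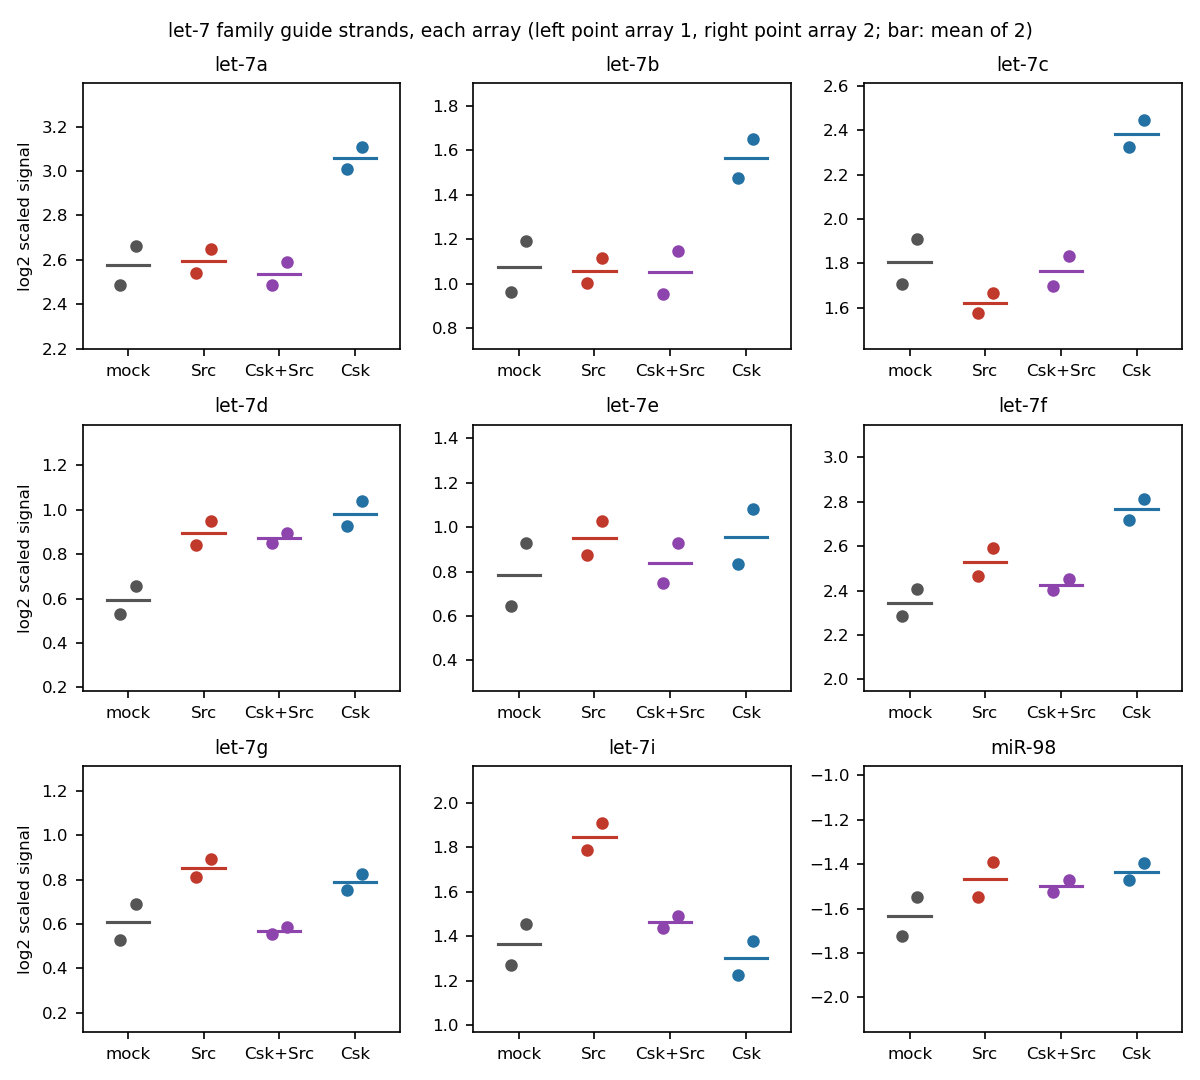
Log2 scaled signal (vertical axis) of each of the 9 members on each array, by group (horizontal axis); points are arrays, array 1 on the left, and bars are the means of 2 arrays. let-7a, let-7b, let-7c and let-7f stand highest in the Csk group, let-7i stands highest in the Src group, and array 2 lies above array 1 in every group.

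The first comparison asked what c-Src did in cells without Csk. Against mock, 3 of the 9 members rose, let-7i, let-7d and let-7g, and 0 fell. The log2 scaled signal of let-7i was 1.27 and 1.46 on the mock arrays, 1.79 and 1.91 on the Src arrays, 1.44 and 1.49 on the Csk+Src arrays and 1.23 and 1.38 on the Csk arrays. Both Src arrays lay above the 6 others. let-7i rose by 0.48 on the log2 scale (SE 0.09, n = 2 against 2, 1.40-fold, limma adjusted p = 0.00976). let-7d, transcribed with let-7a and let-7f on chromosome 13, was at 0.53 and 0.66 in mock, 0.84 and 0.95 in Src, 0.85 and 0.89 in Csk+Src and 0.93 and 1.04 in Csk. Only the mock arrays stood apart from the rest for this member. It rose by 0.30 with c-Src (SE 0.07, limma adjusted p = 0.0191). let-7g was at 0.53 and 0.69 in mock, 0.81 and 0.89 in Src, 0.56 and 0.58 in Csk+Src and 0.75 and 0.83 in Csk, so its mock and Csk+Src arrays overlapped below the other 4. Its rise with c-Src was 0.24 (SE 0.07, limma adjusted p = 0.0322).

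Over all 243 microRNAs, 44.4% were called in Src against mock, 25.9% higher and 18.5% lower, and the members' 3 of 9 is read against that share. The median difference was 0.17 over the members and 0.00 over all tested microRNAs. let-7c, with a log2 difference of -0.19 (95% interval -0.42 to 0.05, limma adjusted p = 0.169), and let-7b, with -0.02, were the members below 0. let-7a differed by 0.02 (95% interval -0.19 to 0.23). Leaving out Src array 2 or Csk+Src array 2 left 0 members called, and leaving out either mock array left 1. let-7i then differed by 0.41 without Src array 2 (limma adjusted p = 0.0893) and by 0.47 without Csk+Src array 2 (limma adjusted p = 0.0558), and it was called without each of the other 6 arrays. With the slide row as a block, 6 members were called higher and 1 lower.

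The next comparison was of cells given Csk and c-Src together with cells given c-Src alone. Against Src, let-7i and let-7g fell in Csk+Src and 0 members rose. let-7i fell by 0.38 (SE 0.09, limma adjusted p = 0.0181) and let-7g by 0.28 (SE 0.07, limma adjusted p = 0.0182). The differences between Csk+Src and mock were 0.10 for let-7i (95% interval -0.13 to 0.33) and -0.04 for let-7g (95% interval -0.21 to 0.13). let-7d did not follow them, with a difference of -0.02 between Csk+Src and Src (95% interval -0.20 to 0.15). Among all tested microRNAs 44.9% were called, 29.2% lower and 15.6% higher, so 2 of 9 members is no more than the background. The members' median was -0.06 and that of all tested microRNAs -0.08. These calls depended on the scaling. With the 75th percentile over all mouse microRNAs 0 members were called lower and let-7c was called higher, at 0.37, while let-7i was at -0.15 and let-7g at -0.05. With the percentile that left out the let-7 names and their neighbours 5 members were called higher and 0 lower. The calls also rested on single arrays. Without Csk array 2, an array of neither group that enters the scaling and the estimate of the spread, the difference was -0.23 for let-7i (limma adjusted p = 0.0703) and -0.13 for let-7g (limma adjusted p = 0.148). In all, 0 members were called without mock array 2, Src array 2, Csk array 2 or either Csk+Src array. Within the slide rows both kept their sign, and with the row as a block 4 members were called, 1 higher and 3 lower.

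Csk alone gave calls that shared let-7d with those of c-Src alone. In Src against Csk directly, let-7d (-0.09) and let-7g (0.06) were not called. Against mock, let-7c, let-7b, let-7a, let-7f and let-7d rose in Csk cells, and 0 members fell. let-7c was at 1.71 and 1.91 in mock, 1.58 and 1.67 in Src, 1.70 and 1.83 in Csk+Src and 2.32 and 2.45 in Csk. let-7a was at 2.49 and 2.66 in mock, 2.54 and 2.65 in Src, 2.48 and 2.59 in Csk+Src and 3.01 and 3.11 in Csk. In both, the Csk arrays stood above the 6 others, which overlapped for let-7a. let-7b, encoded beside let-7c on chromosome 15, was at 0.96 and 1.19 in mock, 1.001 and 1.12 in Src, 0.95 and 1.15 in Csk+Src and 1.48 and 1.65 in Csk. let-7f was at 2.28 and 2.41 in mock, 2.47 and 2.59 in Src, 2.40 and 2.45 in Csk+Src and 2.72 and 2.81 in Csk. These too were highest on both Csk arrays, with no overlap.

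The rise with Csk was 0.58 for let-7c (SE 0.09, 1.49-fold, limma adjusted p = 0.00375), 0.49 for let-7b (SE 0.12, limma adjusted p = 0.0175) and 0.48 for let-7a (SE 0.08, 1.40-fold, limma adjusted p = 0.00456). It was 0.42 for let-7f (SE 0.07, limma adjusted p = 0.004) and 0.39 for let-7d (SE 0.07, limma adjusted p = 0.00505). Calls covered 55.1% of all tested microRNAs, 38.3% higher and 16.9% lower. The median was 0.39 over the members and 0.07 over all. let-7i, the member with the largest difference in Src cells, differed by -0.06 (95% interval -0.29 to 0.16, limma adjusted p = 0.588), and let-7g by 0.18 (limma adjusted p = 0.0698). let-7a, let-7c, let-7d and let-7f were called without each of the 8 arrays in turn. let-7b was at 0.37 without mock array 1 (limma adjusted p = 0.0731) and at 0.35 without Csk array 2 (limma adjusted p = 0.135). With the slide row as a block 8 members were called, all higher.

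let-7e and miR-98 passed the test in none of the 7 contrasts fitted. let-7e was at 0.65 and 0.93 in mock, 0.88 and 1.03 in Src, 0.75 and 0.93 in Csk+Src and 0.83 and 1.08 in Csk, so every group overlapped every other. miR-98 was at -1.73 and -1.55 in mock, -1.55 and -1.39 in Src, -1.53 and -1.47 in Csk+Src and -1.47 and -1.39 in Csk. For miR-98 the Csk difference from mock was 0.20 (95% interval -0.01 to 0.42), and for let-7e it was 0.17 (95% interval -0.19 to 0.53). Array 2 was the higher one in every group for both, and with the slide row as a block both were called in 3 contrasts. These were Src against mock (limma adjusted p = 0.034 for let-7e and 0.0336 for miR-98), Csk against mock (0.0254 and 0.0149) and the interaction (0.0173 and 0.0309), each with 1 sign in both rows.

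**Figure D2:**
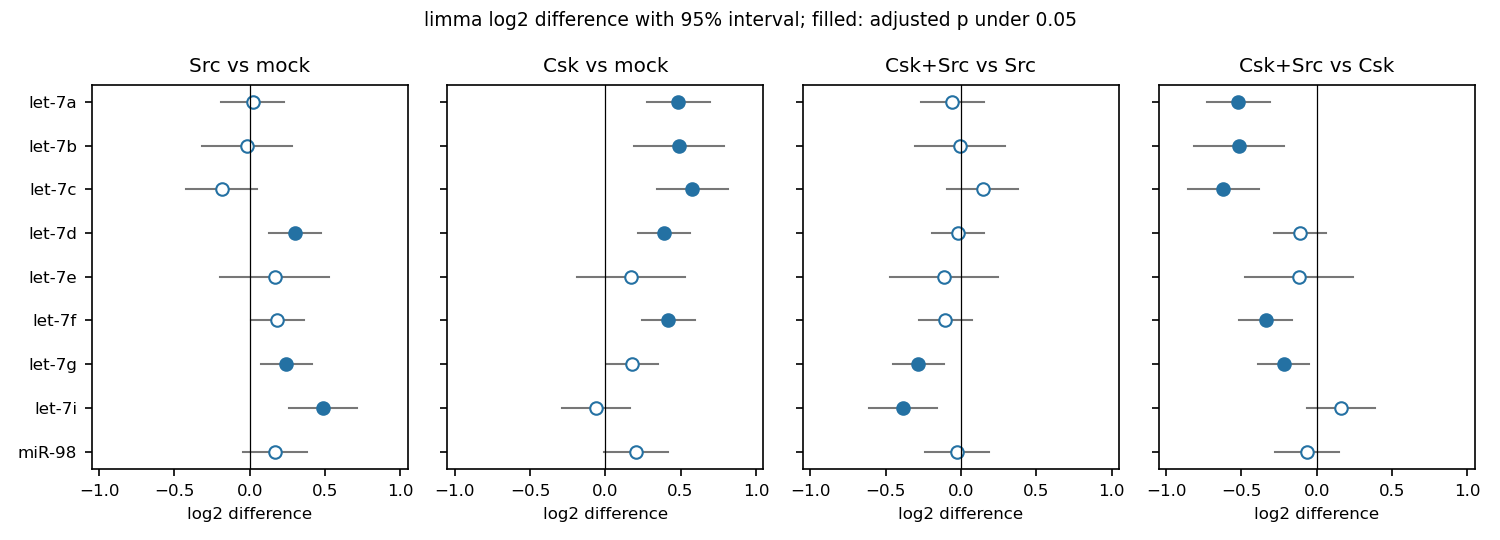
Limma log2 differences (horizontal axis) of the 9 members (vertical axis) in 4 comparisons, with 95% intervals; filled points have an adjusted p under 0.05. The points filled for Src against mock are let-7d, let-7g and let-7i, and those filled for Csk against mock are let-7a, let-7b, let-7c, let-7d and let-7f.

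Of the 5 members that were higher in Csk than in mock, 4 were lower in Csk+Src than in Csk, and let-7d, at -0.11, was not called. Against Csk, let-7c fell by 0.62 in Csk+Src (SE 0.09, limma adjusted p = 0.00261), let-7a by 0.52 (SE 0.08, limma adjusted p = 0.00316) and let-7b by 0.51 (SE 0.12, limma adjusted p = 0.0137). let-7f fell by 0.34 (SE 0.07, limma adjusted p = 0.00877) and let-7g by 0.22 (SE 0.07, limma adjusted p = 0.035), and 0 members rose. These sizes lay outside the range of the 6 other scalings. That range was -0.41 to -0.18 for let-7a, -0.40 to -0.17 for let-7b and -0.50 to -0.09 for let-7c. For let-7f it was -0.22 to 0.18 and for let-7g -0.10 to 0.13. let-7i had a difference of 0.16 (95% interval -0.06 to 0.39). With 5 of the 6 other scalings let-7i was called higher, and over all 6 it lay at 0.20 to 0.51. It was also called higher with the slide row as a block (limma adjusted p = 0.0216). Calls covered 60.9% of all tested microRNAs, 41.6% lower and 19.3% higher, and the median was -0.22 over the members and -0.15 over all. With the 75th percentile over all mouse microRNAs 0 members were called lower, with let-7a at -0.18, let-7c at -0.27 and let-7f at 0.0082, and let-7d and let-7i were called higher, at 0.24 and 0.51. Csk array 2 also mattered. Without it 0 members were called lower, with let-7c at -0.36 (limma adjusted p = 0.0739) and let-7a at -0.27 (limma adjusted p = 0.096), and let-7i was called higher at 0.44 (limma adjusted p = 0.0195). Without Csk+Src array 1 the count was 2, and without Csk+Src array 2 it was 3. This comparison shares the Csk arrays with that of Csk and mock, so the rises there and the falls here are not separate measurements.

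Few members were called between cells with both genes and mock. let-7d alone was called, higher by 0.28 (SE 0.07, limma adjusted p = 0.0306), where 34.2% of all tested microRNAs were called, 12.3% higher and 21.8% lower. It lost the call without either mock array, either Csk+Src array or Src array 2, with differences of 0.22 to 0.35. The 8 others had differences between -0.04 and 0.14. The median over the members was 0.05, and that over all tested microRNAs was -0.08. With the percentile that left out the let-7 names and their neighbours 4 members were called higher. With the median over the microRNAs detected on all arrays 3 were.

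Src and Csk cells differed in opposite directions for different members. let-7i was higher in Src by 0.55 (SE 0.09, 1.46-fold, limma adjusted p = 0.00348). let-7c was lower by 0.76 (SE 0.09, limma adjusted p = 0.00114), let-7b by 0.51 (SE 0.12, limma adjusted p = 0.0132), let-7a by 0.46 (SE 0.08, limma adjusted p = 0.00477) and let-7f by 0.23 (SE 0.07, limma adjusted p = 0.0301). Here 63% of all tested microRNAs were called, 26.3% higher in Src and 36.6% lower. The calls of let-7i and let-7c held under all 24 alternatives run, including the 6 other scalings between arrays and the omission of each array. The count over the 9 members fell from 5 to 3 without Src array 1 or Csk array 2.

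Set in order of their means, the groups fell into few steps. For let-7a, let-7b and let-7c the Csk group came first, and the 3 other groups had no neighbouring pair that differed beyond its spread (limma adjusted p of 0.269 to 1). For let-7f the order was Csk, Src, Csk+Src and mock, with only the first step called. let-7i had the order Src, Csk+Src, mock and Csk, and again only its first step was called, of 0.38. let-7d had 3 groups within 0.11 of each other and a called step of 0.28 down to mock. For let-7g, let-7e and miR-98 no step between neighbours was called.

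Whether the change made by c-Src depended on Csk was asked of the interaction, the c-Src difference with Csk minus that without it. It was below 0 for all 9 members and called for 5, let-7a at -0.54 (SE 0.12, limma adjusted p = 0.0129), let-7f at -0.52 (SE 0.10, limma adjusted p = 0.00799), let-7g at -0.46 (SE 0.09, limma adjusted p = 0.0107), let-7c at -0.43 (SE 0.13, limma adjusted p = 0.0403) and let-7d at -0.41 (SE 0.10, limma adjusted p = 0.0169). Calls covered 50.6% of all tested microRNAs, 37% lower and 13.6% higher. The members' median of -0.43 stood beside -0.17 over all. let-7i had -0.32 (95% interval -0.64 to 0.00) and let-7b -0.50 (95% interval -0.92 to -0.07), neither of which was called. Without Csk array 2, or without Csk+Src array 2, 0 members were called. Without Src array 2 the count was 1, and without mock array 2 or Csk+Src array 1 it was 3. Without Csk array 2 the values were -0.29 for let-7a and -0.28 for let-7f. With the slide row as a block all 9 were called, and within each row all 9 stayed below 0, both with the reported scaling. Over the 6 other scalings let-7a, let-7b, let-7d and let-7g stayed below 0. The highest values were above 0 for let-7c (0.35), miR-98 (0.18), let-7e (0.12), let-7f (0.09) and let-7i (0.09).

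A comparison that needs no scaling between arrays is that of one member with another on the same array. let-7c and let-7i are given here because their difference varied most between the groups of all 36 pairs of members, so it is a description with no test. Their log2 difference was 0.43 and 0.45 on the mock arrays, -0.21 and -0.24 on the Src arrays, 0.26 and 0.34 on the Csk+Src arrays and 1.098 and 1.07 on the Csk arrays. Its zero has no meaning, because the probes differ in brightness, but its changes do. The 4 groups were separate, the group means spanned 1.31, and the largest gap between arrays of a group was 0.08. The difference fell from mock to Src and rose from mock to Csk. Relative to the mean of the 9 members on the same array, let-7i had group means of 0.31 in mock, 0.64 in Src, 0.35 in Csk+Src and -0.07 in Csk.

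Of the 36 pairs of members 17 (47.2%) had 4 groups that did not overlap, as had 39% of the 17391 pairs among the 187 microRNAs detected on all arrays. let-7a and let-7b, which differ at 2 bases, kept nearly the same difference throughout, with group means that spanned 0.05, less than the gap of 0.09 between arrays of a group. Over the 8 arrays their log2 values had r = 0.988, the highest of any pair, while let-7c and let-7i had r = -0.59, the lowest. These correlations are descriptions over arrays that share a slide, rows and scaling. Pairs that differ at 1 base had spans of 0.23 to 0.46, and those that differ at 4 bases had spans of 0.19 to 1.31. Over the pairs, which share members, the number of base differences and the span had a Spearman rho of 0.27, a relation that was looked at after the values were seen. Both probes of a member gave much the same log2 differences, with a median gap of 0.033 and a largest gap of 0.104 over 45 combinations of a member and a comparison.

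**Figure D3:**
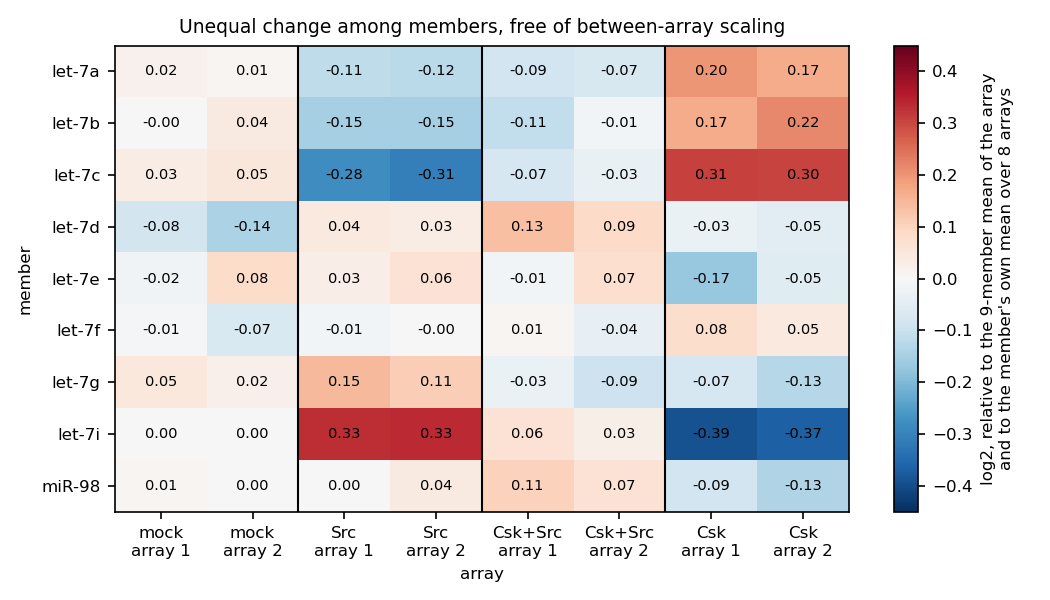
Log2 signal of each member (rows) on each array (columns), after subtraction of the array's mean over the 9 members and of the member's own mean over the 8 arrays; red is higher and blue lower, on the scale given. let-7i is at 0.33 on both Src arrays and at -0.39 and -0.37 on the Csk arrays, and let-7c goes the other way.

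The scaling between arrays decides how much of the family is called. A change of scale moves all microRNAs of an array alike, and with 6 other scalings the median over all tested microRNAs moved by more than 0.1 in every comparison under at least 1 of them. In Csk+Src against Src it was 0.11 with the 75th percentile over all mouse microRNAs, 0.21 with a percentile that left out the let-7 names and their neighbours, and -0.23 in the unscaled series table. Relative to the median of all tested microRNAs, let-7i in Src against mock was at 0.48, and at 0.38 to 0.50 under the other scalings. In Csk against mock let-7a was at 0.41 (0.26 to 0.41) and let-7b at 0.42 (0.36 to 0.48). let-7c was at 0.51 there, at 0.45 to 0.51 with the scalings that divide each array by 1 number, and at 0.05 with quantile normalization, which also reversed let-7f (-0.12, limma adjusted p = 0.0374).

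The same holds for the shares of calls set beside the members. Higher calls were 58.3% of all calls in Src against mock and 38.2% to 84.6% with the other scalings. They were 34.9% in Csk+Src against Src (22.2% to 75.2%), 69.4% in Csk against mock (50% to 76.4%) and 31.8% in Csk+Src against Csk (43.1% to 58.6%). They were 36.1% in Csk+Src against mock (39.4% to 75.5%), 41.8% in Src against Csk (29.1% to 64.9%) and 26.8% in the interaction (21.4% to 67.0%). In the interaction 0 members were called with the 75th percentile over all mouse microRNAs or with the percentile that left out the let-7 names and their neighbours, and 1 with the summed signal of all mouse microRNAs. Relative to the median of all tested microRNAs the interaction of let-7a stayed below 0, at -0.36 to -0.25, while that of let-7c reached 0.35 with quantile normalization.

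**Figure D4:**
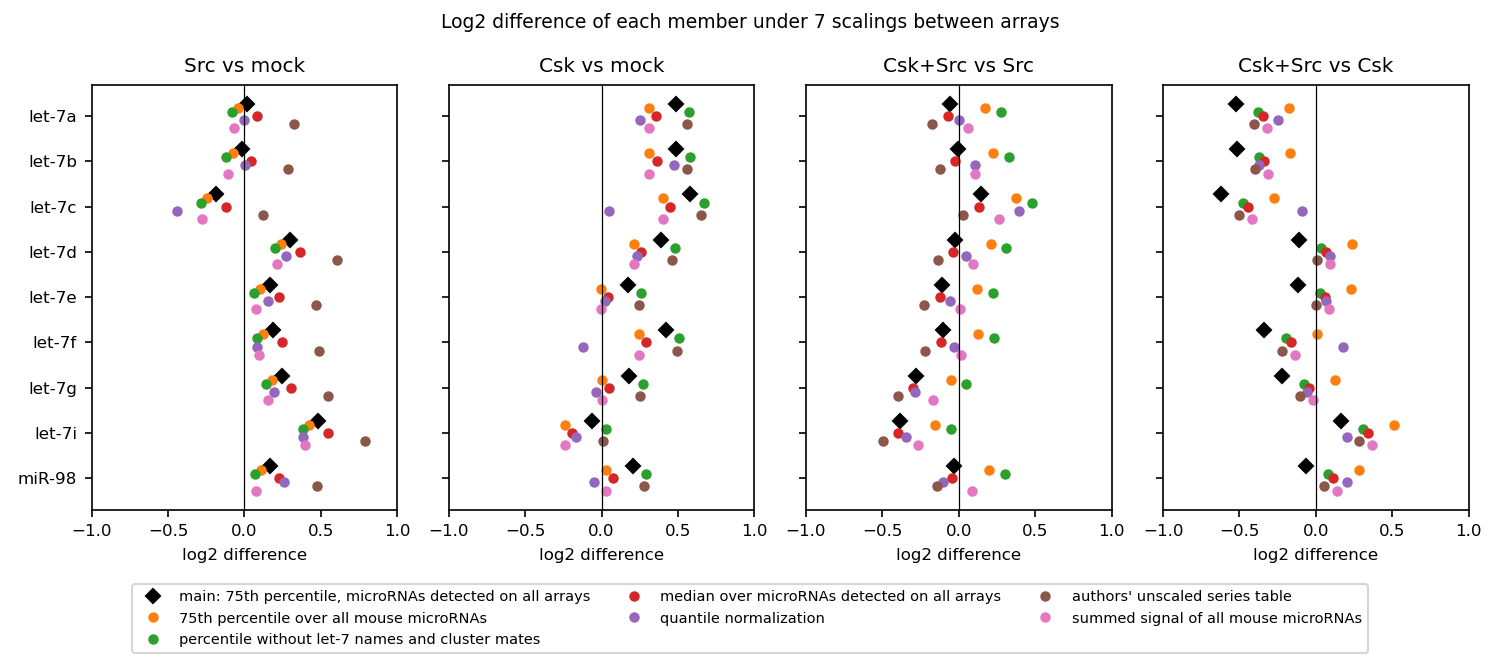
Log2 difference (horizontal axis) of each member (vertical axis) in 4 comparisons under 7 scalings between arrays, the reported one as a black diamond. In Src against mock let-7i lies right of 0 under all 7. In Csk+Src against Csk the points of let-7d, let-7e, let-7f, let-7g and miR-98 fall on both sides of 0.

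Passenger strands, the partner strands of the same precursors, were followed under the 7 other let-7 names on the array. let-7g* and let-7i* were detected on no array, and 5 were tested. let-7a* was called in the same direction as let-7a in Csk against mock, Csk+Src against Csk and Src against Csk. It was at -4.97 and -4.51 in mock, -4.60 and -4.88 in Src, -4.68 and -4.62 in Csk+Src and -4.14 and -4.06 in Csk, with the Csk arrays above all others. It rose with Csk by 0.64 (SE 0.17, limma adjusted p = 0.0263) and was lower by 0.55 in Csk+Src than in Csk (SE 0.17, limma adjusted p = 0.0401). The first call held in 15 of 24 alternatives, 3 of them among the 8 that leave out an array, and the second in 9 of 24.

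let-7c-1*, the partner of let-7c at its gene on chromosome 16, was not detected on either Src array and was detected on all 6 others. Its sequence is shown because it is another strand than the guide. The guide differed from mock in the same direction in Src, by -0.19, but was not called. Of 24 alternatives 3 called the guide lower, and 5 of the 6 other scalings kept its sign. Whether the strands differed in their change was not tested.
let-7c-1*: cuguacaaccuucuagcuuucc

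Its log2 scaled signal was -4.996 and -4.96 in mock, -4.69 and -4.40 in Csk+Src and -4.80 and -4.26 in Csk, and both Src arrays were at the floor of -5.69. With this scaling and floor it was at least 1.64-fold lower in Src than in mock (limma adjusted p = 0.0322). It was at least 2.21-fold lower than in Csk+Src (limma adjusted p = 0.00607) and at least 2.24-fold lower than in Csk (limma adjusted p = 0.00381). Over the 6 other scalings the log2 difference from mock was -1.64 to -0.51. With normexp it was 0.24 in Csk+Src against Src and -0.36 in Src against Csk, neither called. The floor gave the Src arrays an SD of 0. The call against mock held in 13 of 23 alternatives and in 2 of the 8 that leave out an array, while those against Csk+Src and Csk held in 21 and 22 of 23. let-7b*, let-7d* and let-7f* were called in no contrast. Their differences in Src against mock were -0.76 (95% interval -1.46 to -0.06) for let-7b*, -0.10 for let-7d* and -0.86 (95% interval -1.56 to -0.17) for let-7f*, and let-7f* was detected on 1 of the 2 Csk arrays.

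The microRNAs listed as encoded with let-7 genes were miR-99a, miR-99b, miR-100, miR-125a and miR-125b with their other strands, 9 names of which 7 were tested. In Src against mock 4 of the 7 rose and 2 fell, and in Csk against mock 4 rose and 0 fell, where 44.4% and 55.1% of all tested microRNAs were called. miR-99a, beside the chromosome 16 gene of let-7c, was at 0.19 and 0.25 in mock, -0.76 and -0.72 in Src, 0.52 and 0.47 in Csk+Src and 1.04 and 1.02 in Csk. It fell by 0.96 with c-Src (SE 0.04, limma adjusted p = 5.75e-05) and rose by 0.81 with Csk (SE 0.04, limma adjusted p = 7.03e-05), and both calls held in 24 of 24 alternatives. miR-100, beside a gene of let-7a, fell by 0.15 (SE 0.03, limma adjusted p = 0.0164) and rose by 0.48 (SE 0.03, limma adjusted p = 0.000208) in the same comparisons. Its fall was called in 11 of 24 alternatives. With log2 values averaged over the probes the difference from mock was 0.047 in Src, above 0, and 0.11 in Csk (limma adjusted p = 0.0787), so its probes did not change alike. The rise also lost its call with quantile normalization, at 0.18, and with normexp, at 0.22. Beside those stood 0.02 and 0.48 for let-7a and -0.19 and 0.58 for let-7c. miR-99b, encoded with let-7e, rose by 0.21 with c-Src (SE 0.04, limma adjusted p = 0.00976) and by 0.27 with Csk (SE 0.04, limma adjusted p = 0.00264), where let-7e, not called, had 0.17 in both. The first of these calls held in 16 of 24 alternatives and the second in 21. miR-125b-5p rose by 0.71 with c-Src (SE 0.06, limma adjusted p = 0.000683) and differed by -0.02 with Csk (95% interval -0.19 to 0.14). It was on this list, though no gene of miR-125b lay within 10000 bases of a let-7 gene. In Csk+Src against Src 2 of the 7 rose and 2 fell, in Csk+Src against Csk 0 rose and 3 fell, and in the interaction 1 was called higher and 3 lower. The shares called over all tested microRNAs were 44.9%, 60.9% and 50.6% in these.

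**Figure D5:**
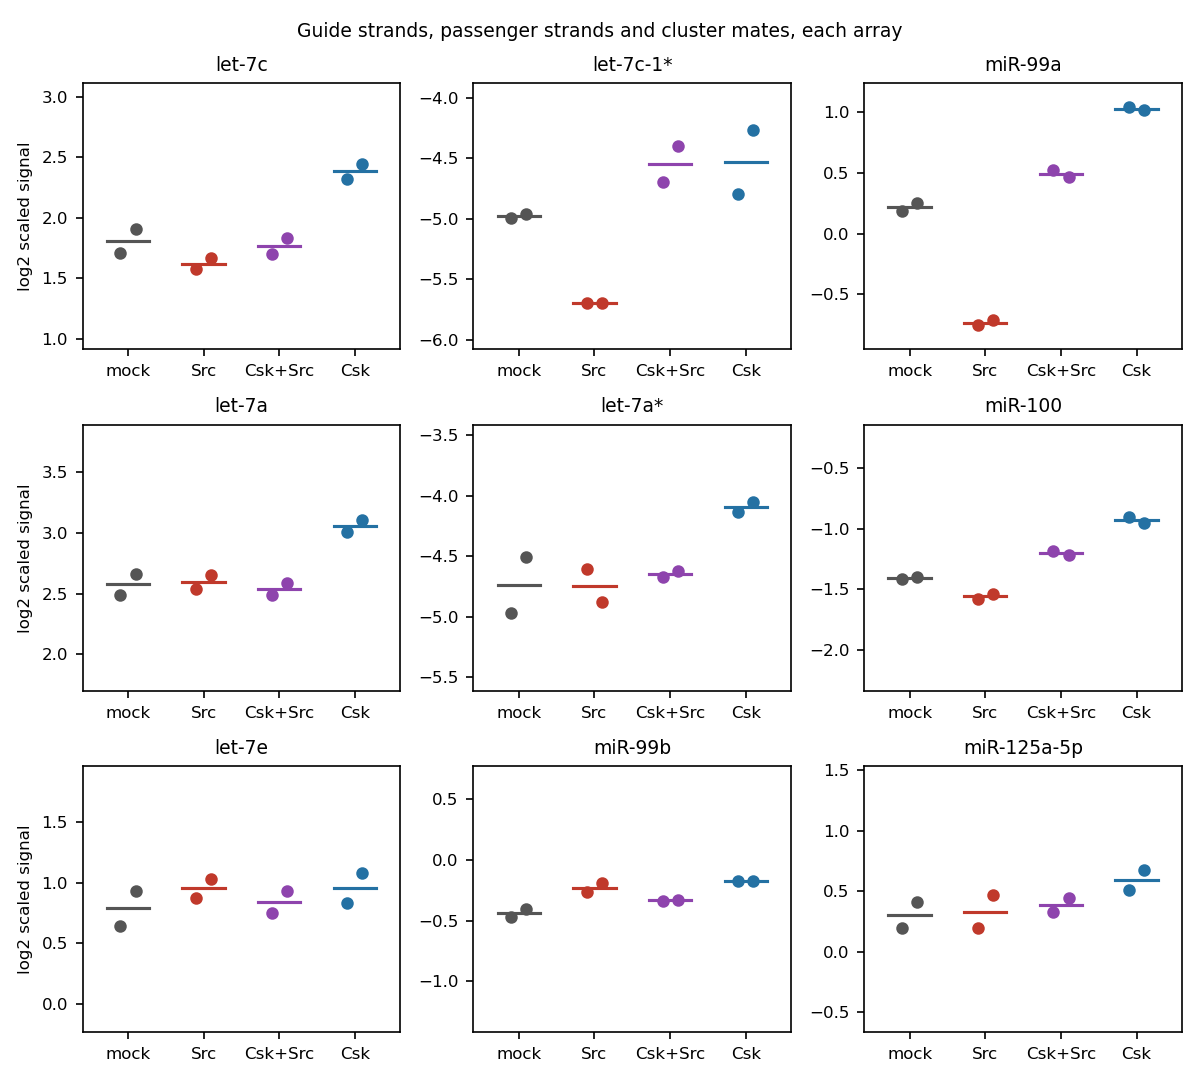
Log2 scaled signal (vertical axes, each of equal length within a row) of let-7c, let-7a and let-7e, with passenger strands and microRNAs encoded beside them, on each array by group; bars are means of 2 arrays, and the Src points of let-7c-1* lie at the floor. let-7a, let-7a*, miR-100 and miR-99a are all highest on the Csk arrays, and miR-100 and miR-99a are lowest on the Src arrays.

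The summed signal of the 9 members made up 9.86% and 10.8% of the signal of all mouse names on the mock arrays, 10.5% and 10.7% on the Src arrays, 10.2% and 11.3% on the Csk+Src arrays and 11.8% and 12.1% on the Csk arrays. The Csk arrays were above the 6 others, which overlapped. Brightness rather than the number of molecules sets these shares.

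Among 183 tested microRNAs outside these lists whose group means spanned at least 0.3, the pattern most like the summed members over the 8 arrays was that of miR-34a (r = 0.969), followed by miR-155 (0.962), miR-15b (0.952), miR-148b (0.944) and miR-151-5p (0.926). By member, miR-15b was the closest to let-7a (r = 0.996) and let-7b (0.984), miR-532-5p to let-7c (0.981), miR-34a to let-7f (0.992), miR-106b to let-7g (0.967) and miR-29b* to let-7i (0.976). miR-151-5p was the closest to let-7d (0.897), let-7e (0.763) and miR-98 (0.865). The arrays share 1 slide and 1 scaling, and no test was made of these values.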

How the data were processed

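Total RNA of 8 samples was labelled with Cy3 and read on one-colour arrays, per the labels' protocols. The deposited intensity of each spot came from Agilent Feature Extraction 9.5.3.1, per the file headers, after background subtraction, with arrays left unscaled. The deposited series table is the summed intensity of each name, with values under 1 set to 1 (650 of 650 entries per array, relative tolerance 1e-05). On Csk array 1 the processed intensity was rounded by up to 0.493%. No spot was saturated.

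Spots not marked as outliers were averaged per probe, summed over the probes of a name, divided by the array's 75th percentile over the 187 names detected on all arrays, floored at 0.01933 and log2-transformed. The 4 group means were fitted with limma (3.58.1, R 4.3.3), with 4 residual and 5.09 total degrees of freedom. Calls needed p under 0.05, two-sided and Benjamini-Hochberg adjusted over 243 names; 368 were not tested. A fold against a group with no detected array is a lower bound against the floor. With 2 arrays a group, the smallest p of an exact permutation test is 0.333. Alternatives covered scaling, background, probe summary, filters, the slide row and each array; 3 were added after the data were seen. The number of arrays limits the precision.

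Named are the 9 members, all other let-7 names, the microRNAs encoded with them and the most similar patterns by r. The members, lists and tests were chosen with earlier results of these data known. Of the cell type markers, 1 of 2 endothelial and 1 of 4 neuronal names were detected on all arrays, and 5 of 6 embryonic stem cell names and 2 of 4 muscle names on none. Deviations of same-numbered arrays from their group means correlated at 0.266 to 0.438 among mock, Src and Csk+Src, and at -0.0912 to 0.0845 between Csk and these. The array number is also the slide row, which the reported fit left out. The counts with it as a block are given below.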

Additional observations from a re-analysis of the deposited data

Results flagged for a closer look

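With the reported scaling, the change that went with c-Src differed between cells with and without Csk for 5 members. The test was the interaction of limma over 243 microRNAs. The difference was -0.54 for let-7a, -0.52 for let-7f, -0.46 for let-7g, -0.43 for let-7c and -0.41 for let-7d on the log2 scale. For let-7a the c-Src difference was 0.02 without Csk and -0.52 with it, and for let-7f it was 0.18 and -0.34. For let-7c it was -0.19 and -0.62, for let-7g 0.24 and -0.22, and for let-7d 0.30 and -0.11. Lower calls in the interaction covered 37% of all tested microRNAs, and 0 of the 5 members were called without Csk array 2. The part of that array, which had 696 outlier spots, was not tested further.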

How the results depend on the processing

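Without each array in turn, members called ranged from 0 to 3 in Src against mock, 0 to 2 in Csk+Src against Src, 4 to 5 in Csk against mock, 1 to 5 in Csk+Src against Csk, 0 to 1 in Csk+Src against mock, 3 to 5 in Src against Csk and 0 to 4 in the interaction. A lone array was then assumed to vary like the other groups. With the 75th percentile over all mouse microRNAs the counts were 1 in Src against mock, 1 in Csk+Src against Src, 2 in Csk against mock, 2 in Csk+Src against Csk and 0 in the interaction, all of them higher, which turns the direction in Csk+Src against Src and in Csk+Src against Csk. With the percentile without let-7 names and neighbours they were 1, 5, 3, 4 and 0 in Src against mock, Csk+Src against Src, Csk+Src against Csk, Csk+Src against mock and the interaction. Of these, the 5 in Csk+Src against Src were all higher, again the opposite direction, and in Csk+Src against Csk 1 was higher and 2 were lower. The median gave 5 in Src against mock and 3 in Csk+Src against mock, quantile normalization 3 in Csk+Src against Csk (1 higher, 2 lower), and the summed signal 1 in the interaction. The unscaled series table gave 7 in Src against mock, 2 in Csk+Src against mock, 3 in Src against Csk and 9 in the interaction. normexp left 1, 0, 1, 1, 0, 2 and 0 members in the 7 contrasts in the order of the first sentence. Fits on the arrays compared alone gave 1 in Src against mock and 0 in Csk+Src against mock. With outlier spots kept, 1 was called in Csk+Src against Src and 0 in Csk+Src against mock. The other filters, probe summary, trended fit and unrounded column left each count within 1.5 times.

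The array numbers were also fitted as a block, which is the slide row: 7 members were called in Src against mock, 4 in Csk+Src against Src, 8 in Csk against mock, 7 in Csk+Src against Csk, 1 in Csk+Src against mock, 5 in Src against Csk and 9 in the interaction. All called members kept their sign within both rows.

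Values that changed sign with a call on either side were these. In Csk+Src against Src, the percentile without let-7 names gave 0.28 for let-7a, 0.31 for let-7d, 0.23 for let-7f, 0.051 for let-7g and 0.30 for miR-98. In Csk+Src against Csk, the percentile over all mouse names gave 0.24 for let-7d, 0.0082 for let-7f and 0.13 for let-7g. Leaving out an array gave let-7g -0.26 to 0.016, the highest without Csk array 2. Quantile normalization gave let-7f -0.12 in Csk against mock, 0.18 in Csk+Src against Csk, 0.21 in Src against Csk and 0.093 in the interaction. It gave miR-98 0.31 in Src against Csk, where the median gave 0.15, and let-7c 0.35 in the interaction. In Src against mock, miR-99b was at 0 with quantile normalization, and miR-100 at 0.15 in the unscaled table and at 0.047 with log2 values averaged over probes. normexp gave let-7a* -0.36 in Csk against mock. The cause was not tested.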
